A study of Mus musculus with 17 samples.

Results

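The genes of the beta-catenin destruction complex and of its feedback inside the cell were followed in whole kidneys of mouse embryos at E12.5. They were 9 of the 24432 gene IDs in the expression table, chosen by name: Axin1, Axin2 and Apc (scaffolds), Gsk3a, Gsk3b and Csnk1a1 (kinases), Btrc (the substrate receptor of the ubiquitin ligase), and Nkd1 and Nkd2 (feedback inhibitors). In 5 libraries, of genotype Ctnnb1-delta3 c/+;Foxd1, an activated Ctnnb1 allele that lacks exon 3 was driven by Foxd1-Cre, which acts in the stromal lineage. In 3 libraries, of genotype Ctnnb1-delta3 c/+;Six2, Six2-Cre drove the same allele in the nephron progenitor lineage. The other 9 libraries were wild type. The strain was mixed in all groups, and both mutants kept 1 normal Ctnnb1 allele. Cre acts in 1 lineage while the RNA came from the whole organ, so each value averages recombined and other cells, and fewer cells of a type cannot be told apart from less RNA per cell. The labels do not say which alleles the wild types carry, whether kidneys or embryos were pooled, or whether replicates were separate litters, so p-values measure the spread between these libraries.

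Without a Wnt signal, Axin and APC hold beta-catenin while casein kinase 1 and then GSK-3 phosphorylate it. The F-box protein encoded by Btrc recognises the phosphorylated stretch, and beta-catenin is ubiquitinated and degraded. A Wnt signal halts this, and stable beta-catenin then acts with TCF/LEF factors on target genes, among which are Axin2 and Nkd1, whose products dampen the pathway. Naked cuticle proteins, encoded by Nkd1 and Nkd2, bind Dishevelled, which lies upstream of the complex. In kidney development, Wnt and beta-catenin signalling controls nephron induction and also acts in the stroma.

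Exon 3 of Ctnnb1 is shown because it is the piece that the activated allele lacks and that the destruction complex reads. It lies on the plus strand at chr9:120950522-120950749 in GRCm38, is wholly coding and has 228 bases (GENCODE release M21). Capitals mark the codons of the stretch that the Btrc product recognises once it is phosphorylated.
Ctnnb1 exon 3: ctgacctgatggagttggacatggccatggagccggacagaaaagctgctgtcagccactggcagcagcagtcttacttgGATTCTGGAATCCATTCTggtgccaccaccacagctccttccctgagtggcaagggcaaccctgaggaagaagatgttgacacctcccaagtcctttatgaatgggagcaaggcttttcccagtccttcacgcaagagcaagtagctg

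The promoters of the 3 genes that rose and of the only matched gene with a TCF/LEF motif in its window are shown beside it. RefSeq (GRCm38.p6) gave windows of 300 bases, from 250 before the start site to 50 after it, for 5 of the 9 genes. They are chr11:108920099-108920398 on the plus strand for Axin2, chr8:88527383-88527682 on the plus strand for Nkd1, chr13:73847582-73847881 on the minus strand for Nkd2, and chr7:25237802-25238101 on the minus strand for Gsk3a. RefSeq's start of Nkd1 lies inside the GENCODE gene, which begins at 88521354, so that window is not at its outermost start. Capitals mark a motif match.
Axin2: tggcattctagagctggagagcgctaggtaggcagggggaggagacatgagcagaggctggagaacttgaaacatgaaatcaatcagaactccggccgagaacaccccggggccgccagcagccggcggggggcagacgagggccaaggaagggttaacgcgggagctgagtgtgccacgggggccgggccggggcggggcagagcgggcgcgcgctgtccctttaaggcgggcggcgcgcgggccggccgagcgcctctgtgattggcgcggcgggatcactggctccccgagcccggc
Nkd1: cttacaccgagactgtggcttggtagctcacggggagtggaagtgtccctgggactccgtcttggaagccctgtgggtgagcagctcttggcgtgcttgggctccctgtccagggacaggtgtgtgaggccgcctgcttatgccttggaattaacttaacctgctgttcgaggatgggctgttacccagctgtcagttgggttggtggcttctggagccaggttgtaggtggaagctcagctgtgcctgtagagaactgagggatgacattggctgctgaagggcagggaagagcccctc
Nkd2: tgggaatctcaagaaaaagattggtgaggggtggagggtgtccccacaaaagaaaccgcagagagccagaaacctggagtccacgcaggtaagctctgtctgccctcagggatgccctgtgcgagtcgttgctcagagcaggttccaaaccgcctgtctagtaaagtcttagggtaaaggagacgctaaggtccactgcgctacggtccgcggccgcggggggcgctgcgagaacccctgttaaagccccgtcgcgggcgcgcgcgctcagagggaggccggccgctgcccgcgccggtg
Gsk3a: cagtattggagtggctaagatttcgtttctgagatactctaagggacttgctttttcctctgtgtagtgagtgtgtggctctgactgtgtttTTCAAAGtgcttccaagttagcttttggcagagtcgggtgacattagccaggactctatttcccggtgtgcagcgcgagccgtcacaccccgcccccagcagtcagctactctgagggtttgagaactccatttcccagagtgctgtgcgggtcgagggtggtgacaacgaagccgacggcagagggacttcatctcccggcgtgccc

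A motif search on both strands used 4 forms of the TCF/LEF site that differ only in their last letters. CTTTGAA was the first form searched, CTTTGAT was the second form searched, CTTTGTA was the third form searched and CTTTGTT was the last form searched. The 1 match among the 5 windows was CTTTGAA on the opposite strand of Gsk3a, at position -158 relative to the start site. Of all 32851 windows of this length, 5544 (16.9%) held a match. These letters were in none of the windows of Axin2, Nkd1, Nkd2 and Gsk3b, which says nothing about sites elsewhere in these genes.

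The libraries formed a pair of sets, which the labels leave unnamed. Wild types 1 to 6 and the Foxd1-Cre libraries were sequenced more deeply, with 5312 to 5807 genes listed at 0, than wild types 7 to 9 and the Six2-Cre libraries, with 7590 to 7891. No read counts were used. The smallest steps between FPKM values (fragments per kilobase of transcript, scaled to sequencing depth) corresponded to about 28800000 to 37400000 reads per library in the first set and 5240000 to 5790000 in the second, and they cover counting error only. Mutants are compared here with the wild types sequenced to a like depth. Foxd1 averaged 19.9 FPKM in Foxd1-Cre kidneys and 102 FPKM in their wild types, and Six2 averaged 17.95 FPKM in Six2-Cre kidneys and 80.8 FPKM in their wild types. Ctnnb1 itself averaged 509 ± 13.2 FPKM in Foxd1-Cre kidneys and 463 ± 35.0 FPKM in wild types (SD, n = 5 and 6; log2 change 0.14 ± 0.05 SE, limma adjusted p = 0.105). In the other comparison it averaged 406 ± 7.05 FPKM in Six2-Cre kidneys and 343 ± 16.6 FPKM in wild types (SD, n = 3 each; log2 change 0.24 ± 0.05 SE, limma adjusted p = 0.0213), a call that was lost without any 1 of the Six2-Cre replicates or wild-type replicate 9 (adjusted p up to 0.0772). A gene-level value does not separate transcripts with and without exon 3.

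In Foxd1-Cre kidneys Axin2, Nkd1 and Nkd2 rose and none of the 9 genes fell, while the other scaffolds, the kinases and the ligase receptor did not pass the test. In Six2-Cre kidneys Axin2 and Nkd1 rose, by less, and the other 7 genes did not pass. Changes are log2 differences of FPKM + 1 from limma with Benjamini-Hochberg adjustment over all genes, and a call is an adjusted p under 0.05. The 3 of 9 called with Foxd1-Cre stand beside 13.3% of all 13996 genes tested (8.45% higher and 4.82% lower), and the 2 of 9 called with Six2-Cre beside 13.8% of 13828 (7.93% higher and 5.84% lower). The Six2-Cre background rests on 1905 genes called, which fell to between 907 and 1099 without any 1 library other than wild-type replicate 9 (1467 without that one), while Axin2 and Nkd1 passed in all 6 of these fits. The median log2 change of the 9 genes was 0.08 with Foxd1-Cre and 0.01 with Six2-Cre, against -0.008 and -0.009 over all genes tested. The groups did not overlap in 3 of the 9 genes with Foxd1-Cre and in 4 of the 9 with Six2-Cre, where 10.7% and 35.7% of all genes tested did not overlap.

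**Figure D1:**
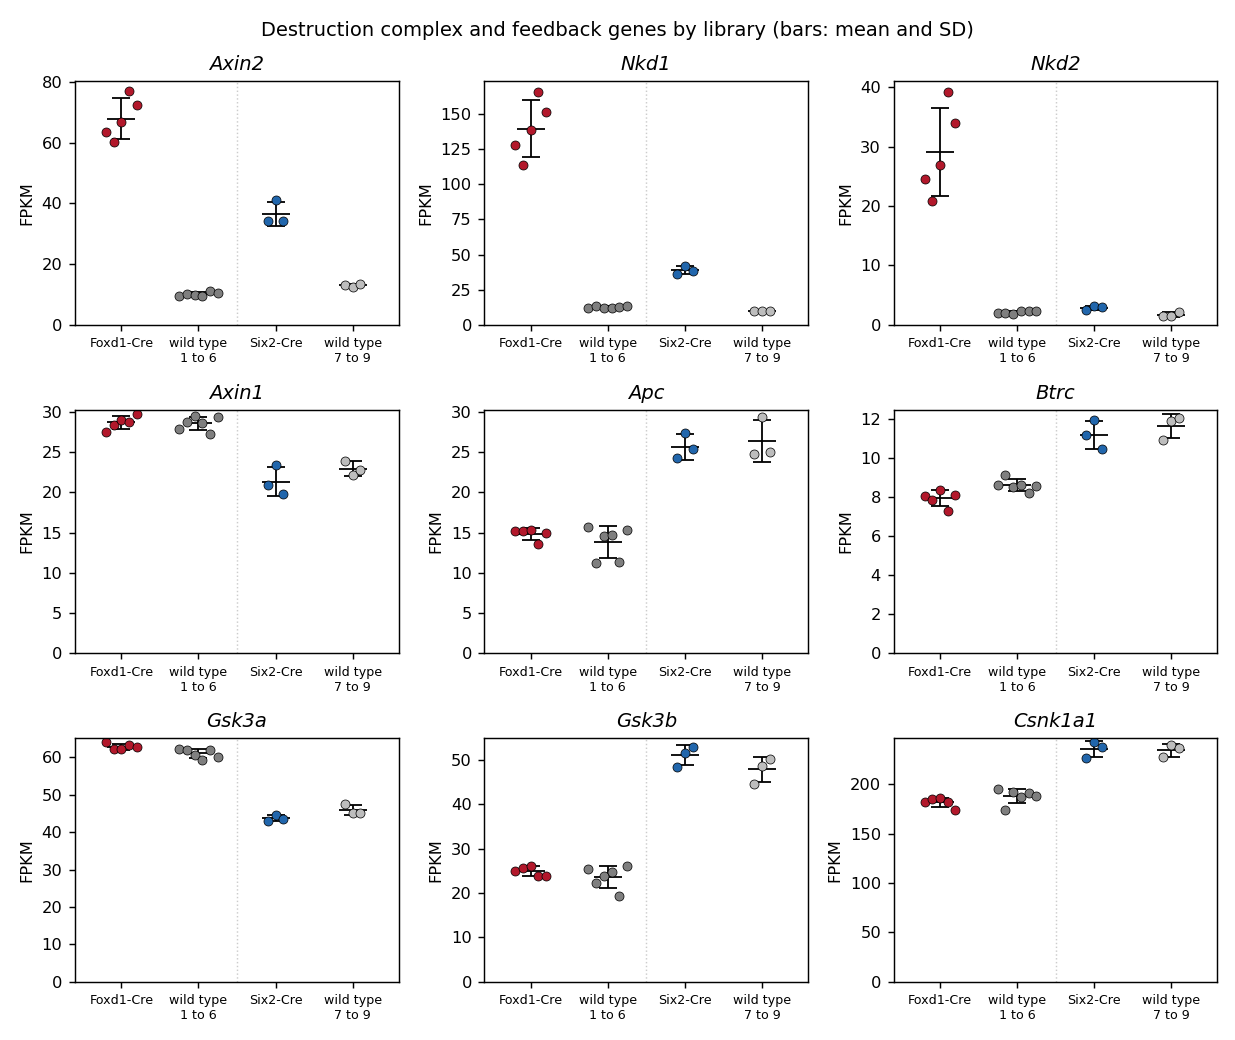
FPKM of the 9 genes in each library (y axis, from 0), with Foxd1-Cre left of wild types 1 to 6 and Six2-Cre left of wild types 7 to 9; bars give the mean and SD. Axin2 and Nkd1 lie clear of the wild types in both mutants, while Nkd2 reached 20.9 to 39.2 FPKM in Foxd1-Cre libraries and stayed at or below 3.14 FPKM in all others.

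Axin2 (ENSMUSG00000000142, chromosome 11, 108920349 to 108950783, plus strand) encodes the inducible Axin scaffold and is a textbook target of beta-catenin. It stood at 63.5, 60.1, 66.9, 77.0 and 72.5 FPKM in Foxd1-Cre replicates 1 to 5, against 9.57 at lowest, 9.94 at the median and 11.0 at highest in wild types 1 to 6. Every Foxd1-Cre library was above every wild type, and the means were 68.0 ± 6.80 and 10.1 ± 0.571 FPKM (SD, n = 5 and 6), a ratio of 6.73. The log2 change was 2.63 ± 0.06 (SE, limma adjusted p = 2.65e-10). In the other mutant Axin2 stood at 34.2, 41.2 and 34.1 FPKM in Six2-Cre replicates 1 to 3, against 13.2, 12.4 and 13.5 FPKM in wild-type replicates 7 to 9. All 3 Six2-Cre libraries were above the wild types, with a ratio of means of 2.80 and a log2 change of 1.42 ± 0.09 (SE, limma adjusted p = 0.000659).

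Axin1 (ENSMUSG00000024182, chromosome 17, 26138688 to 26195811, plus strand) encodes the constitutive Axin. It stood at 27.5, 28.4, 29.0, 28.8 and 29.8 FPKM in Foxd1-Cre replicates 1 to 5, against 27.3 to 29.5 FPKM in wild types 1 to 6 with a median of 28.7. The groups overlapped almost fully, and the log2 change was 0.01 (95% interval -0.06 to 0.07, limma adjusted p = 0.934). In Six2-Cre replicates 1 to 3 it stood at 20.9, 23.3 and 19.8 FPKM, against 23.9, 22.1 and 22.8 FPKM in wild-type replicates 7 to 9 (log2 change -0.10, 95% interval -0.28 to 0.07, limma adjusted p = 0.4).

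The balance within the Axin pair therefore differed between the groups. Axin2 made up 70.2 ± 1.78% of the summed FPKM of Axin1 and Axin2 in Foxd1-Cre libraries and 26.1 ± 1.38% in wild types 1 to 6 (SD, n = 5 and 6). In the other set it made up 63.1 ± 0.885% in Six2-Cre libraries and 36.2 ± 0.863% in wild types 7 to 9 (SD, n = 3 each). Axin2 was thus the more abundant of the pair in all 8 mutant libraries and the less abundant in all 9 wild types. Summed Axin was 96.7 ± 7.32 FPKM in Foxd1-Cre kidneys against 38.7 ± 0.855 FPKM in wild types, and 57.9 ± 5.85 FPKM in Six2-Cre kidneys against 36.0 ± 1.31 FPKM in wild types.

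**Figure D2:**
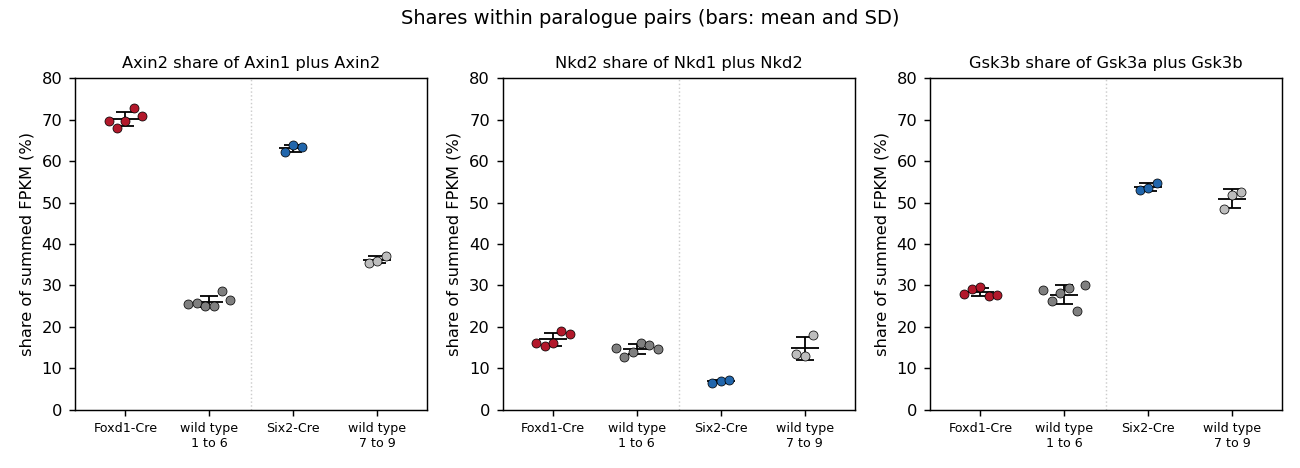
Share of the first-named gene in the summed FPKM of each paralogue pair (y axis, percent), by library, with each mutant left of its wild types; bars give the mean and SD. The Axin2 share was 67.9 to 72.8% in Foxd1-Cre libraries and 62.1 to 63.9% in Six2-Cre libraries, above all wild types (25.05 to 37.2%), and the Nkd2 share was lowest in Six2-Cre libraries (6.38 to 7.14%).

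Apc (ENSMUSG00000005871, chromosome 18, 34220924 to 34322552, plus strand), the large scaffold lost in many colorectal tumours, did not pass the test in either mutant. It stood at 15.1, 15.2, 15.3, 13.5 and 14.9 FPKM in Foxd1-Cre replicates 1 to 5, against 11.2 to 15.7 FPKM in wild types 1 to 6 with a median of 14.7. The log2 change was 0.11 (95% interval -0.09 to 0.30, limma adjusted p = 0.515). In Six2-Cre replicates 1 to 3 it stood at 24.2, 27.3 and 25.3 FPKM, against 24.8, 29.4 and 25.03 FPKM in wild-type replicates 7 to 9 (log2 change -0.04, 95% interval -0.24 to 0.16, limma adjusted p = 0.802). Foxd1-Cre replicate 4 was the lowest of its group.

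The kinases did not pass the test either. Csnk1a1 (ENSMUSG00000024576, chromosome 18, 61555274 to 61590061, plus strand), which encodes the priming kinase casein kinase 1 alpha, had the highest mean of the 9 genes in all 4 groups. It averaged 182 ± 4.73 FPKM in Foxd1-Cre kidneys and 188 ± 7.40 FPKM in wild types, a log2 change of -0.05 (95% interval -0.12 to 0.02, limma adjusted p = 0.396). In the other set it averaged 235 ± 7.87 FPKM in Six2-Cre kidneys and 234 ± 6.61 FPKM in wild types, a log2 change of 0.01 (95% interval -0.10 to 0.11, limma adjusted p = 0.947).

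Gsk3a (ENSMUSG00000057177, chromosome 7, 25228258 to 25237851, minus strand) encodes GSK-3 alpha, 1 form of the kinase that completes the phosphorylation. It stood at 64.1, 62.3, 62.2, 63.2 and 62.7 FPKM in Foxd1-Cre replicates 1 to 5, against 59.3 to 62.4 FPKM in wild types 1 to 6 (log2 change 0.04, 95% interval -0.01 to 0.09, limma adjusted p = 0.281). In Six2-Cre replicates 1 to 3 it stood at 43.0, 44.7 and 43.5 FPKM, against 47.5, 45.2 and 45.1 FPKM in wild-type replicates 7 to 9. These last groups did not overlap, yet the log2 change of -0.07 did not pass the test (95% interval -0.17 to 0.03, limma adjusted p = 0.332).

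Gsk3b (ENSMUSG00000022812, chromosome 16, 38089001 to 38246084, plus strand) encodes the other form, GSK-3 beta. It averaged 24.9 ± 1.04 FPKM in Foxd1-Cre kidneys and 23.6 ± 2.45 FPKM in wild types, a log2 change of 0.08 (95% interval -0.06 to 0.23, limma adjusted p = 0.506). In Six2-Cre kidneys it averaged 51.0 ± 2.25 FPKM, against 47.8 ± 2.87 FPKM in wild types, a log2 change of 0.09 (95% interval -0.05 to 0.23, limma adjusted p = 0.372). Gsk3b took 28.4 ± 0.985% of the summed GSK-3 FPKM in Foxd1-Cre libraries and 27.8 ± 2.34% in their wild types, against 53.8 ± 0.937% in Six2-Cre libraries and 51.0 ± 2.26% in theirs, so the sets differed more than the mutants did from their wild types. The ranges overlapped in the first set (27.4 to 29.6% and 23.9 to 30.2%) and stood just apart in the second (53.0 to 54.8% and 48.4 to 52.7%).

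Btrc (ENSMUSG00000025217, chromosome 19, 45363734 to 45530013, plus strand) stood at 8.08, 7.87, 8.38, 7.30 and 8.10 FPKM in Foxd1-Cre replicates 1 to 5, against 8.20 to 9.11 FPKM in wild types 1 to 6 with a median of 8.60. Only replicate 3 reached the wild types. The log2 change of -0.10 had a 95% interval of -0.19 to -0.02 but did not pass after adjustment over all genes (limma adjusted p = 0.113). In Six2-Cre replicates 1 to 3 Btrc stood at 11.2, 11.9 and 10.5 FPKM, against 10.9, 11.9 and 12.1 FPKM in wild-type replicates 7 to 9 (log2 change -0.05, 95% interval -0.23 to 0.12, limma adjusted p = 0.691). Over Axin1, Apc, Gsk3a, Gsk3b, Csnk1a1 and Btrc the log2 changes ran from -0.10 to 0.11 with Foxd1-Cre and from -0.10 to 0.09 with Six2-Cre. Their intervals reached no further than -0.28 and 0.30.

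Nkd1 (ENSMUSG00000031661, chromosome 8, 88521354 to 88594884, plus strand) had the largest log2 change of the 9 genes in both mutants on the log2(FPKM + 1) scale; with 0.1 FPKM added, Nkd2 was ahead of it with Foxd1-Cre (3.66 against 3.46). It stood at 128, 114, 139, 166 and 152 FPKM in Foxd1-Cre replicates 1 to 5, against 11.6 at lowest, 12.3 at the median and 13.7 at highest in wild types 1 to 6. The groups lay far apart, with means of 140 ± 20.3 and 12.51 ± 0.859 FPKM (SD, n = 5 and 6), a ratio of 11.2. The log2 change was 3.37 ± 0.09 (SE, limma adjusted p = 4.44e-10). In Six2-Cre replicates 1 to 3 it stood at 36.3, 42.0 and 38.5 FPKM, against 9.59, 9.89 and 10.04 FPKM in wild-type replicates 7 to 9. All 3 were above the wild types, with a ratio of means of 3.96 and a log2 change of 1.88 ± 0.07 (SE, limma adjusted p = 0.000129).

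Nkd2 (ENSMUSG00000021567, chromosome 13, 73818534 to 73847631, minus strand) was the lowest of the 9 genes in both wild-type groups and in Six2-Cre kidneys. It stood at 24.6, 20.9, 26.9, 39.2 and 33.9 FPKM in Foxd1-Cre replicates 1 to 5, against 1.90 at lowest, 2.19 at the median and 2.36 at highest in wild types 1 to 6. All 5 mutant libraries were above the wild types, with a ratio of means of 13.5 and a log2 change of 3.22 ± 0.14 (SE, limma adjusted p = 1.73e-08). The added 1 FPKM understates the change of so low a gene, as the log2 change of 3.66 with 0.1 FPKM added shows. In Six2-Cre replicates 1 to 3 Nkd2 stood at 2.48, 3.14 and 2.96 FPKM, against 1.498, 1.48 and 2.20 FPKM in wild-type replicates 7 to 9. These groups did not overlap, but the log2 change of 0.51 did not pass (95% interval 0.16 to 0.85, limma adjusted p = 0.0687). Without wild-type replicate 9, the highest of the 3, it was 0.63 with an adjusted p of 0.0412. About 8.14 to 18.0 reads per kilobase of Nkd2 lay behind each value in this set, against 61.1 to 1130 in the first set.

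**Figure D3:**
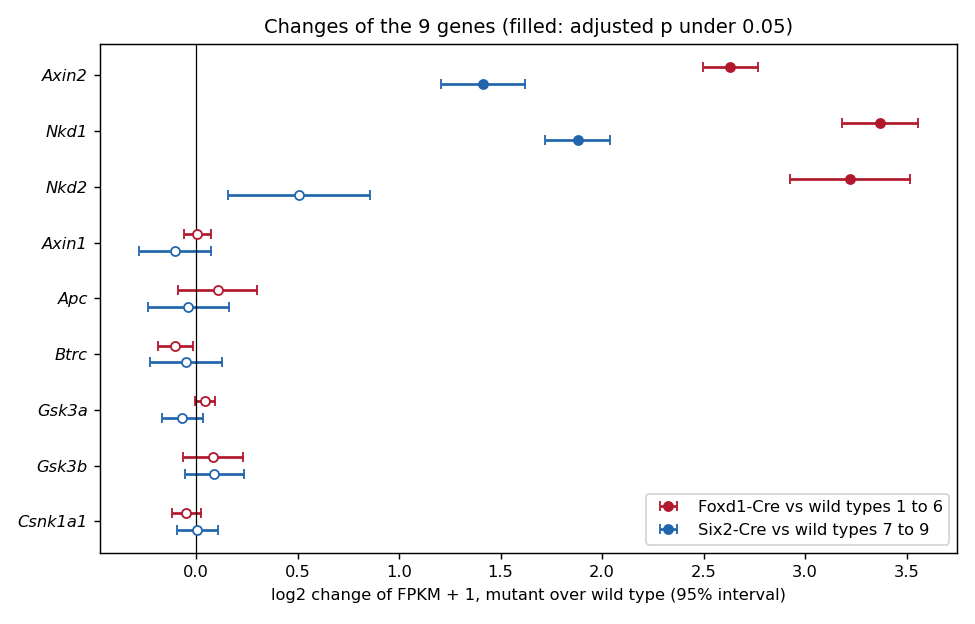
Log2 change of FPKM + 1 (x axis) for the 9 genes (rows), with a point and a 95% interval for each mutant; filled points have an adjusted p under 0.05. Axin2 and Nkd1 lie right of 0 in both mutants, Nkd2 stands at 3.22 with Foxd1-Cre and 0.51 with Six2-Cre, and the other 6 genes lie between -0.10 and 0.11.

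Whether the rises differed in size between the mutants was tested by subtracting the Six2-Cre effect from that of Foxd1-Cre, each taken against its own wild types. Axin2, Nkd1 and Nkd2 all rose further with Foxd1-Cre, 3 of 9 genes beside 11.0% of 13810 genes called for the difference (5.76% further up with Foxd1-Cre and 5.24% further down). The difference was 1.22 ± 0.11 for Axin2 (SE, adjusted p = 7.79e-06 from the limma fits), 1.49 ± 0.11 for Nkd1 (adjusted p = 6.62e-08) and 2.72 ± 0.20 for Nkd2 (adjusted p = 2.23e-07). For the other 6 genes the difference ran from -0.05 to 0.14 and none passed, the smallest adjusted p being 0.188 for Gsk3a. The median difference was 0.11 over the 9 genes and 0.01 over all genes. Mutant line and library set cannot be told apart here, other than by taking each effect against wild types of its own set.

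Among the rising genes, the proportions also differed. Nkd1 stood at 2.05 ± 0.0994 times the FPKM of Axin2 in Foxd1-Cre libraries, against 1.24 ± 0.0780 times in their wild types (SD, n = 5 and 6). The ratio was 1.07 ± 0.0540 in Six2-Cre libraries, against 0.756 ± 0.0350 in theirs (SD, n = 3 each). It was higher in every mutant library than in any wild type of the same set. Nkd2 made up 17.05 ± 1.55% of the summed Nkd FPKM in Foxd1-Cre libraries and 14.7 ± 1.24% in their wild types, ranges that overlapped. In Six2-Cre libraries it made up 6.82 ± 0.391%, against 14.8 ± 2.74% in theirs, ranges that did not overlap. Summed Nkd was 169 ± 27.6 FPKM in Foxd1-Cre kidneys against 14.7 ± 0.950 FPKM in wild types, and 41.8 ± 3.20 FPKM in Six2-Cre kidneys against 11.6 ± 0.600 FPKM in wild types.

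The order of the 9 genes by mean FPKM shows the same shift. In Foxd1-Cre kidneys it ran Csnk1a1, Nkd1, Axin2, Gsk3a, Nkd2, Axin1, Gsk3b, Apc and Btrc, where the ranges of Axin2 and Gsk3a and those of Nkd2 and Axin1 overlapped. Wild types 1 to 6 ran Csnk1a1, Gsk3a, Axin1, Gsk3b, Apc, Nkd1, Axin2, Btrc and Nkd2, where only Apc and Nkd1 overlapped as neighbours. In Six2-Cre kidneys the order was Csnk1a1, Gsk3b, Gsk3a, Nkd1, Axin2, Apc, Axin1, Btrc and Nkd2, with an overlap between Nkd1 and Axin2. Wild types 7 to 9 ran Csnk1a1, Gsk3b, Gsk3a, Apc, Axin1, Axin2, Btrc, Nkd1 and Nkd2, with an overlap between Gsk3b and Gsk3a.

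The wild types of the sets differed from each other, in the same tissue at the same stage. Wild types 7 to 9 stood at 2.03 times the mean FPKM of wild types 1 to 6 for Gsk3b and at 1.91 times for Apc. For Btrc, Axin2 and Csnk1a1 the ratio was 1.35, 1.29 and 1.25, and for Axin1, Nkd2, Nkd1 and Gsk3a it was 0.803, 0.801, 0.786 and 0.752. Nkd2 alone overlapped between these wild types. The share of all genes without overlap between them was not computed, so that count is no result about the 9 genes. Setting Six2-Cre kidneys against all 9 wild types called 6 of the 9 genes, in a fit that called 6444 of all 14014 genes tested. Among the 6 were Gsk3b (log2 change 0.75, limma adjusted p = 0.0234) and Gsk3a (-0.34, 0.0162), which did not pass against wild types of their own set.

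Within the 5 Foxd1-Cre libraries the rising genes varied together. Axin2, Nkd1 and Nkd2 were each highest in replicate 4, then in 5, 3 and 1, and lowest in 2, and this order was unchanged with each library rescaled to the same total or by median of ratios. The highest library stood at 1.28 times the lowest for Axin2, 1.46 times for Nkd1 and 1.87 times for Nkd2. In wild types 1 to 6 the order differed among the 3 genes, and the same ratios were 1.15, 1.18 and 1.24. Total FPKM was also highest in Foxd1-Cre replicate 4 (918363) and next in 5 (904229), but replicate 2, lowest for all 3 genes, had the third highest (896204). The reads estimated from the smallest FPKM steps ran in exactly the opposite order to the 3 genes: about 28800000 in replicate 4, 29300000 in 5, 32200000 in 3, 32500000 in 1 and 37400000 in 2. In wild types 1 to 6 this estimate spanned 29000000 to 34700000, within the Foxd1-Cre range. The part of depth in the shared order was not tested. Dact1, described below, was also highest in replicate 4, then in 5 and 3. How many other genes follow this order was not counted, so it is not shown to be particular to the 3 genes.

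**Figure D4:**
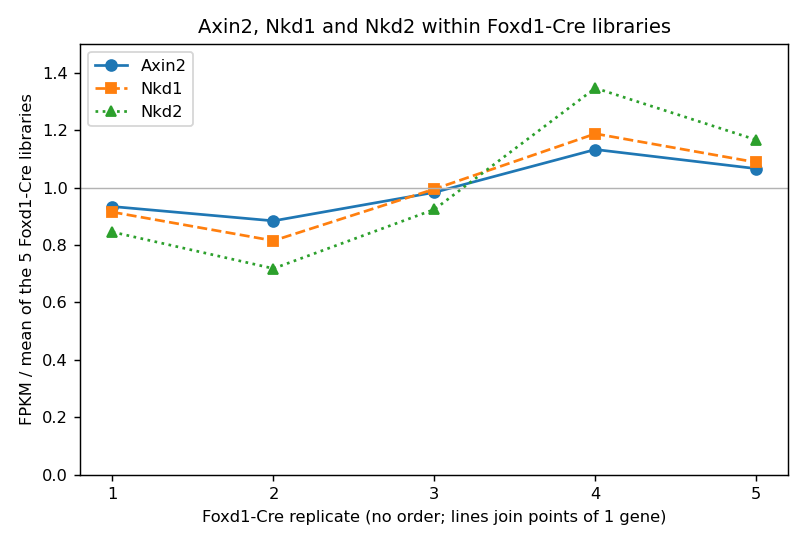
FPKM of Axin2, Nkd1 and Nkd2 in each Foxd1-Cre replicate (x axis, in no order) over the gene's mean in the 5 Foxd1-Cre libraries (y axis); lines only join the points of 1 gene. All 3 genes are lowest in replicate 2 and highest in replicate 4, where Axin2 is at 1.13, Nkd1 at 1.19 and Nkd2 at 1.35 of its mean.

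Ppp2r5a rose in both mutants and Dact1 with Foxd1-Cre among the other intracellular genes of the pathway, most of which did not pass the test. Of 46 listed genes with deposited values (partners of the complex, ligase partners, Axin turnover, other casein kinase 1 forms, Dishevelled and co-receptor genes, other inhibitors), 45 were tested. Frat1 was also listed, but no deposited gene ID matched it. With Foxd1-Cre 3 rose, 1 fell and 41 did not pass, and with Six2-Cre 4 rose, 2 fell and 39 did not pass. The 4 of 45 called with Foxd1-Cre stand beside 13.3% of all genes tested, and the 6 of 45 called with Six2-Cre beside 13.8%, so the Six2-Cre count is near the background. Their median log2 change was 0.02 with Foxd1-Cre and -0.01 with Six2-Cre. None of the 7 ligase partners, which include Fbxw11, the close relative of Btrc, passed in either mutant, nor did any of the 5 Axin turnover genes (tankyrases and others) or of the 5 casein kinase 1 relatives. Beside 13.3% and 13.8% of all genes called, a count of 0 in lists this short is no result about them. Fbxw11 averaged 40.2 ± 1.10 FPKM in Foxd1-Cre kidneys and 40.2 ± 2.30 FPKM in wild types, well above Btrc on the same per-length scale.

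Among 12 tested partners of the complex, Ppp2r5a, a regulatory subunit of protein phosphatase 2A, rose in both mutants. It averaged 24.4 ± 1.76 FPKM in Foxd1-Cre kidneys and 19.6 ± 1.06 FPKM in wild types (log2 change 0.30 ± 0.05 SE, limma adjusted p = 0.00216). In the other set it averaged 25.2 ± 0.294 FPKM in Six2-Cre kidneys and 19.97 ± 0.502 FPKM in wild types (0.32 ± 0.04 SE, limma adjusted p = 0.00773). Amer1, an APC-binding protein whose gene is lost in some Wilms tumours, averaged 14.7 ± 0.430 FPKM in Six2-Cre kidneys and 11.2 ± 0.729 FPKM in wild types (log2 change 0.36 ± 0.07 SE, limma adjusted p = 0.0192). That call was lost without any 1 of the Six2-Cre replicates or wild-type replicate 7 (adjusted p up to 0.0699).

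Of the 11 Dishevelled and co-receptor genes tested, Cdk14, a kinase that acts on the co-receptor LRP6, rose with Foxd1-Cre (16.3 ± 1.31 FPKM in mutants, 12.7 ± 0.917 FPKM in wild types, log2 change 0.34 ± 0.06 SE, limma adjusted p = 0.00246), a call lost with all 9 wild types as controls (0.13, adjusted p = 0.565). Caprin2 fell (5.03 ± 0.306 FPKM in mutants, 6.08 ± 0.494 FPKM in wild types, log2 change -0.23 ± 0.06 SE, limma adjusted p = 0.0168), a call lost with each library rescaled to the same total (adjusted p = 0.0501). The log2 change of Cdk14 with Six2-Cre was of like size, 0.36 (95% interval 0.08 to 0.64), but did not pass (limma adjusted p = 0.0921). The difference between the mutants' effects on Cdk14 was -0.02 (adjusted p = 0.938 from the limma fits). With Six2-Cre, Frat2, which encodes a GSK-3 binding protein, fell (3.08 ± 0.229 FPKM in mutants, 4.89 ± 0.650 FPKM in wild types, log2 change -0.53 ± 0.11 SE, limma adjusted p = 0.0284). The co-receptor gene Lrp5 rose (23.3 ± 0.904 FPKM in mutants, 19.5 ± 0.965 FPKM in wild types, log2 change 0.24 ± 0.06 SE, limma adjusted p = 0.04). The Lrp5 call was lost in all 6 fits that left out 1 library (adjusted p 0.0503 to 0.121), and the Frat2 call without any 1 library other than wild-type replicate 9 (up to 0.087).

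The Dact genes, which encode Dishevelled-binding modulators, went separate ways. Dact1 stood at 75.5, 76.2, 86.0, 91.0 and 88.0 FPKM in Foxd1-Cre replicates 1 to 5, against 32.9 to 38.4 FPKM in wild types 1 to 6, and all mutants were above the wild types. Its log2 change was 1.21 ± 0.06 with Foxd1-Cre (SE, limma adjusted p = 5.84e-08) and 0.24 ± 0.10 with Six2-Cre (limma adjusted p = 0.158; 0.35 and 0.0229 without wild-type replicate 9). Dact2 fell with Six2-Cre, at 4.63, 4.57 and 5.14 FPKM in mutants against 8.44, 7.98 and 7.05 FPKM in wild types (log2 change -0.61 ± 0.09 SE, limma adjusted p = 0.00968). Dact3 rose with Six2-Cre, at 19.2, 17.4 and 18.8 FPKM in mutants against 14.4, 13.2 and 13.2 FPKM in wild types (log2 change 0.41 ± 0.06 SE, limma adjusted p = 0.0109; 0.0501 without Six2-Cre replicate 3). The difference between the mutants' effects, Foxd1-Cre over Six2-Cre, passed for Dact1 (0.96, adjusted p = 0.00026), Dact2 (0.54, 0.00752) and Dact3 (-0.46, 0.00929), and for none of the other 42 tested genes of the lists. These 3 of 45 stand beside 11.0% of all genes called for the difference.

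**Figure D5:**
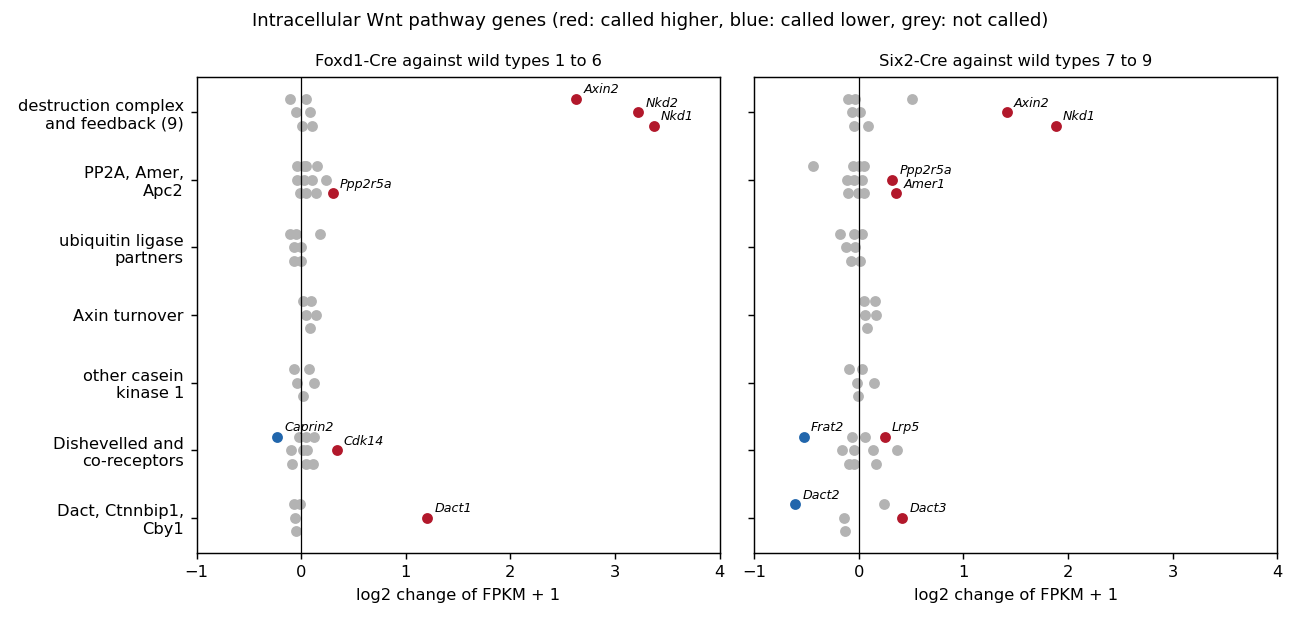
Log2 change of FPKM + 1 (x axis) of the 9 genes and of the other intracellular pathway genes by list (rows), with Foxd1-Cre left and Six2-Cre right; each point is a gene, red called higher, blue called lower and grey not called. Most points lie near 0, and Axin2, Nkd1, Nkd2 and Dact1 stand out with Foxd1-Cre.

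A search for genes of like pattern covered 11592 protein-coding genes that were tested in both fits and reached a mean of 2 FPKM in some group. Genes whose symbols begin with Gm or end with Rik were left out. The genes whose pattern was most like that of each rising gene were found by the root mean square difference of log2(FPKM + 1), centred on the wild types of the own set, over all 17 libraries. For Axin2 they were Lef1 (0.19), which encodes a TCF/LEF factor, Enpp2 (0.23), Prdm1 (0.24), Tubb3 (0.24) and Armh4 (0.25). For Nkd1 they were Armh4 (0.26), Prdm1 (0.27), Fzd10 (0.30), a Wnt receptor gene, Tubb3 (0.31) and Wif1 (0.35), which encodes a secreted Wnt inhibitor. For Nkd2 they were Efhd1 (0.25), Ndst3 (0.36), Fgf13 (0.37), Lepr (0.40) and Amhr2 (0.41). Lef1 averaged 42.5 FPKM in Foxd1-Cre kidneys and 7.34 FPKM in wild types, and 40.3 FPKM in Six2-Cre kidneys and 15.7 FPKM in wild types. Efhd1 averaged 13.9 FPKM in Foxd1-Cre kidneys and 0.363 FPKM in wild types, and 0.948 FPKM in Six2-Cre kidneys and 0.597 FPKM in wild types. Efhd1, Ndst3 and Amhr2 reached the mean of 2 FPKM that the search required only with Foxd1-Cre, so they entered it through the group where they are high. All these genes were chosen for their likeness in the same libraries, so their shared pattern is no separate result.

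Markers of the kidney's cell types moved with the mutants, and their part in the values above was not tested. Summed stromal markers (7 genes) were 285.5 to 352 FPKM in Foxd1-Cre libraries and 550 to 637 FPKM in wild types, with 5 of 7 lower. Nephron progenitor markers (7 genes) were 148 to 157 FPKM in Six2-Cre libraries and 311 to 364 FPKM in wild types, with 6 of 7 lower, and 281 to 331 FPKM in Foxd1-Cre libraries against 366 to 442 FPKM in wild types, with 5 of 7 lower. Among those 5, the Six2 call (limma adjusted p = 0.0283) was lost with each library rescaled to the same total (0.112), with all 9 wild types (0.46), and in 5 fits that each left out 1 library: the 2nd, 3rd or 5th Foxd1-Cre replicate, or wild type 4 or 6 (up to 0.0776). Endothelial markers (5 genes) were 144 to 153 FPKM in Six2-Cre libraries and 67.0 to 83.8 FPKM in wild types, with 5 of 5 higher (2 of 5 with Foxd1-Cre, 102 to 133 FPKM against 84.6 to 112 FPKM), and erythroid markers (6 genes) 3640 to 4570 FPKM against 7326 to 8817 FPKM, with all 5 tested lower. Neural markers (5 genes) were 24.8 to 34.8 FPKM in Foxd1-Cre libraries and 8.17 to 12.53 FPKM in wild types, where Tubb3, also among the genes most like Axin2, was the 1 of 4 tested that passed. Markers of adult nephron segments (4 genes) summed to at most 0.585 FPKM in any library.

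The deposited values carry no statement on strand, and 8 of the 9 genes share their place with another annotated gene: Gm11670 opposite Axin2, AC140047.1 opposite Axin1, Gm10548 opposite Apc, 9130221H12Rik opposite Gsk3a, Gm25617 and Gm27931 at Gsk3b, Gm6807 opposite Btrc, Gm45496 on the strand of Nkd1 and Gm8062 opposite Nkd2. Their values are uncertain to that extent, and so are those of Cdk14, Dact1, Dact2 and Ctnnb1, which Mir7090 overlaps on its own strand and 4930593C16Rik and Ulk4 on the other. No annotated gene overlaps Csnk1a1.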

How the data were processed

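RNA was sequenced from dissected kidneys kept in RNAlater and extracted with the RNeasy Micro kit, per the labels' protocols. Salmon quantified transcripts on GRCm38 after base calling by bcl2fastq 2.17.1.14, per the submitters' processing notes. The authors deposited FPKM values for 24432 gene IDs in 17 libraries; the annotation release, gene-level summary, scaling and strand are not given in the sources used here. Symbols and positions came from GENCODE release M21, where 24222 IDs matched. Groups and replicate numbers came from the sample titles.

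A gene entered when 3 or more libraries reached 1 FPKM (14014 did). limma 3.58.1 (R 4.3.3, trended variance) was fitted to log2(FPKM + 1) separately per library set, with Benjamini-Hochberg adjustment over all genes, two-sided. The difference of the effects added the squared standard errors, with Satterthwaite degrees of freedom. The code was tested on simulated data. Alternatives were another pseudocount, no filter, other scalings, all 9 wild types, a replicate block (without wild type 6) and leaving out each library. The members, lists, library sets and tests were chosen with earlier results of these data known. Named genes were the 9 members, Ctnnb1, Foxd1 and Six2, up to 3 genes with the smallest p per pathway list and the 5 genes most like each rising gene. That likeness was sought among protein-coding genes tested in both fits and reaching a mean of 2 FPKM in some group, without Gm and Rik symbols. Fbxw11 was named outside this rule, after its values were seen.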

Additional observations from a re-analysis of the deposited data

Results flagged for a closer look

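Axin2, Nkd1 and Nkd2 were picked out because the Foxd1-Cre effect and the Six2-Cre effect differed by a test of the difference itself, by 1.22, 1.49 and 2.72 on the log2(FPKM + 1) scale (adjusted p = 7.79e-06, 6.62e-08 and 2.23e-07 from the limma fits). Each was higher in 5 of 5 Foxd1-Cre libraries and in 3 of 3 Six2-Cre libraries than in any wild type of its set. Groups did not overlap in 10.7% of all genes tested with Foxd1-Cre and in 35.7% with Six2-Cre. Nkd2 did not pass the test with Six2-Cre (limma adjusted p = 0.0687). For the Dact genes the same difference was 0.96 for Dact1, 0.54 for Dact2 and -0.46 for Dact3 (adjusted p = 0.00026, 0.00752 and 0.00929 from the limma fits).

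Apc in Foxd1-Cre libraries was picked out because 1 library stood apart: replicate 4, at 13.5 FPKM, lay below the other 4 at 14.9 to 15.3 FPKM, and its gap to the nearest of them was 0.761 of the group's range. Of 18 groups of 4 to 10 libraries checked, chance alone picks out about 1 in 20. Replicate 4 was also the library with the highest Axin2, Nkd1 and Nkd2.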

How the results depend on the processing

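Axin2, Nkd1 and Nkd2 with Foxd1-Cre, Axin2 and Nkd1 with Six2-Cre, and the difference of the effects for all 3 kept their direction and stayed past the threshold under every alternative run. With all 9 wild types as controls, 1234 of 14014 genes were called with Foxd1-Cre (against 1856 called in the main fit). With Six2-Cre, 6444 of 14014 genes were then called (against 1905), and 6 of the 9 members (against 2). The members added were Axin1 (-0.31), Gsk3a (-0.34), Gsk3b (0.75) and Csnk1a1 (0.22). With these controls the direction also turned for Apc (-0.19), Gsk3b (-0.25), Dact2 (0.015) and Dact3 (0.22) with Foxd1-Cre, and for Apc (0.56), Btrc (0.21), Ctnnb1 (-0.045), Dact3 (-0.12) and Amhr2 (-0.35) with Six2-Cre. The wild types of the sets differ in the members and in Ctnnb1; other causes were not tested.

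Leaving out 1 library at a time gave 1423 to 1922 genes called with Foxd1-Cre, 907 to 1467 with Six2-Cre and 1036 to 1527 for the difference, with 3, 2 to 3 and 3 members called; fewer samples entered these fits. None of the values that turned was called: with Foxd1-Cre Axin1 ran from -0.008 to 0.021 and Dact3 from -0.094 to 0.012, with Six2-Cre Apc ran from -0.084 to 0.039, Csnk1a1 from -0.017 to 0.032 and Amhr2 from -0.136 to 0.222, and the Gsk3b difference ran from -0.061 to 0.040.

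Deviations of same-numbered Foxd1-Cre and wild-type libraries were weakly correlated, at 0.077, 0.056, 0.056, 0.012 and 0.117 for replicates 1 to 5. The highest correlation with another number was 0.093, 0.082, 0.078, 0.058 and 0.032. With correlations so low on both sides, this check cannot settle whether the numbers pair the libraries. The replicate block left out wild type 6, whose number no Foxd1-Cre library carries. With this block 1426 genes and 3 members were called, and Caprin2 (limma adjusted p = 0.0502) and Six2 (0.051) with Foxd1-Cre lost their calls. Leaving out wild type 6 alone also lost the Six2 call (0.059), so the part of the block in that loss cannot be told apart. Caprin2 and Six2 also lost their calls with each library rescaled to the same total (0.0501 and 0.112), and Six2 with all 9 wild types (0.46). Six2-Cre libraries share no number with wild types 7 to 9, so no block was possible there. The lower depth of the second set limits what can be said of Nkd2 with Six2-Cre.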
